A study of Homo sapiens with 6 samples.

Results

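The genes described here are 10 that encode Polycomb repressive complex proteins, EZH1, EZH2, EED, SUZ12, JARID2, RBBP4, BMI1, RNF2, RING1 and CBX2, picked by symbol out of 19421 genes measured on one common scale. All 10 were listed and all 10 passed the filter on low values, as did 11599 genes in all. Expression was measured by RNA sequencing of total RNA from A431, an established human squamous carcinoma cell line with many copies of the EGFR gene, cultured in DMEM with serum. In 3 samples the cells carried a control shRNA (shCONTROL) and in 3 an shRNA against ARID1A (shARID1A), a DNA-binding subunit of the SWI/SNF chromatin remodelling complex, and no other allele or agent is labelled. How many different shRNAs were used, the time since their introduction and whether the cells were a pool or a clone were not given in the sources used here. Nothing in the labels says that replicates came from separate cultures, and p-values therefore measure a spread that may be technical.

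Polycomb proteins keep developmental genes silent and act in 2 main complexes. Polycomb repressive complex 2 (PRC2) methylates lysine K27 of histone H3 through one of its paired catalytic subunits, EZH2 or EZH1, bound to the scaffold SUZ12, to EED, which reads the finished mark, and to the histone-binding protein RBBP4. JARID2 is an accessory subunit that helps to recruit and stimulate the complex. Polycomb repressive complex 1 (PRC1) ubiquitylates histone H2A through RNF2 (also RING1B) or its paralog RING1 (RING1A), together with a PCGF protein such as BMI1, and in its canonical form holds a CBX protein such as CBX2 that binds the mark set by PRC2. SWI/SNF and Polycomb complexes are known to oppose each other on chromatin, and EZH2 is known as a gene that dividing cells express through E2F factors while EZH1 is the form of resting cells.

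The regions around the starts of EZH2 and EZH1 are shown because the transcripts of these paralogs differed in opposite directions. Both are 300 bases from RefSeq on GRCh38.p14, of which 250 lie before the annotated start and 50 after it, on the minus strand at chr7:148884242-148884541 for EZH2 and at chr17:42744991-42745290 for EZH1. Capitals mark matches, on either strand, to TTTNGCGC, the core of an E2F-type site, and to CCAAT, the core bound by the factor NF-Y, which reads as its reverse complement where it lies on the other strand. No match overlaps another.
EZH2: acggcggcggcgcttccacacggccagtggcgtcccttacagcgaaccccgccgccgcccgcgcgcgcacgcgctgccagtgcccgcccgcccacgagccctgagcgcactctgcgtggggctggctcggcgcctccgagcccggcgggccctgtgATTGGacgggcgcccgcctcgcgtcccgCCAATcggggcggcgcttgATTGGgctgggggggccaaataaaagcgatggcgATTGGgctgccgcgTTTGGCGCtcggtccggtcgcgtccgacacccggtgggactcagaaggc
EZH1: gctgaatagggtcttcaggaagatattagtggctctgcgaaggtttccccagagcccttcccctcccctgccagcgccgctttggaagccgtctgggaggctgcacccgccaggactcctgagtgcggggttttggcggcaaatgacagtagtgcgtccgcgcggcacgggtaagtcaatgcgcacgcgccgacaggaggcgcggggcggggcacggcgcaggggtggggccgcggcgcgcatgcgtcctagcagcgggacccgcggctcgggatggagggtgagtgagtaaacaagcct
The EZH2 window holds 1 match to TTTNGCGC, which begins 1 base downstream of the annotated start, and 4 matches to CCAAT. The EZH1 window holds no exact match to either. It does hold tttggcgg, which differs from TTTNGCGC in the last base, and such near matches were neither marked nor counted. Among 35116 windows of the same length in the table, 1.79% hold TTTNGCGC, 34.6% hold CCAAT and 0.991% hold CCAAT at least 4 times. RefSeq windows were matched for 9 of the 10 genes, all but CBX2, with 13 windows in total, and TTTNGCGC occurs in none of the 13 other than this one, while the second EZH2 window, at another start, holds neither motif. A match describes letters only and was not tested as a binding site.

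Libraries held 31658040 to 36453744 reads assigned to genes. ARID1A fell from 23.1 ± 0.60 to 7.21 ± 0.46 FPKM (fragments or reads per kilobase of gene, scaled by the sample's assigned reads; SD, n = 3 per group), so each library matched its label. The first principal component of the tested genes (55.4% of the variance) divided shCONTROL from shARID1A, and shARID1A replicate 3 stood apart on the second (25.0%). Of the 10 squamous epithelial markers 9 were tested, of which KRT5, TP63 and DSP fell, and KRT14 was at most 0.847 FPKM. The untested fibroblast, leukocyte and endothelial markers, among them DCN, PDGFRA, PTPRC and PECAM1, reached at most 0.202, 0.340 and 0.118 FPKM. LUM, COL1A1 and CD68 passed the filter, the fibroblast list summed to 6.56 to 8.96 FPKM in shCONTROL and 10.3 to 12.5 FPKM in shARID1A samples, LUM rose (limma adjusted p = 0.0156), and the part of these markers in the results was not tested. Log2 differences of genes below are differences of mean log2(FPKM + 1), which understate changes of low genes, with standard errors and adjusted p-values from limma over all 11599 genes. Percentages and multiples of the control level are instead ratios of mean FPKM with no pseudocount, so the measures do not convert into each other. The threshold is an adjusted p of 0.05.

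Of the 10 Polycomb genes, 1 rose with the ARID1A shRNA (EZH2), 3 fell (EZH1, JARID2 and RING1) and 6 did not pass the test. Over all genes tested 16.8% were called, 5.85% higher and 10.9% lower. The median difference of the 10 genes was 0.00 on the log2 scale, with 5 above and 5 below zero, against -0.08 over all genes tested. The values of the 2 groups did not overlap for 5 of the 10, the 4 called genes and CBX2, against 38.8% of all genes. The split of calls depended on the scaling, with 679 genes higher and 1265 lower as deposited, 947 and 831 after quantile normalization, and 1048 and 971 with voom on the recovered reads. With other settings the share called over all genes was 15.3% after quantile normalization, 16.0% after upper quartile scaling, 15.8% with an equal FPKM sum per sample, 7.77% without a filter on low values, 17.4% with voom and 23.6% with the replicate number as a block. Several calls were not kept when 1 library was left out. When shCONTROL replicate 1, shCONTROL replicate 2 or shARID1A replicate 1 was left out, limma called 0 of the 10 each time. The share called over all genes then fell to 6.45%, 5.06% and 6.78%. In each of these runs 5 of the 10 had an unadjusted p under 0.05. No share over all genes is given at an unadjusted p, here or below, so such counts cannot be set against the shares called. Without shCONTROL replicate 3 only EZH1 passed, at 12.1% over all genes, and without shARID1A replicate 3 the calls numbered 6, at 29.3% over all genes.

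**Figure D1:**
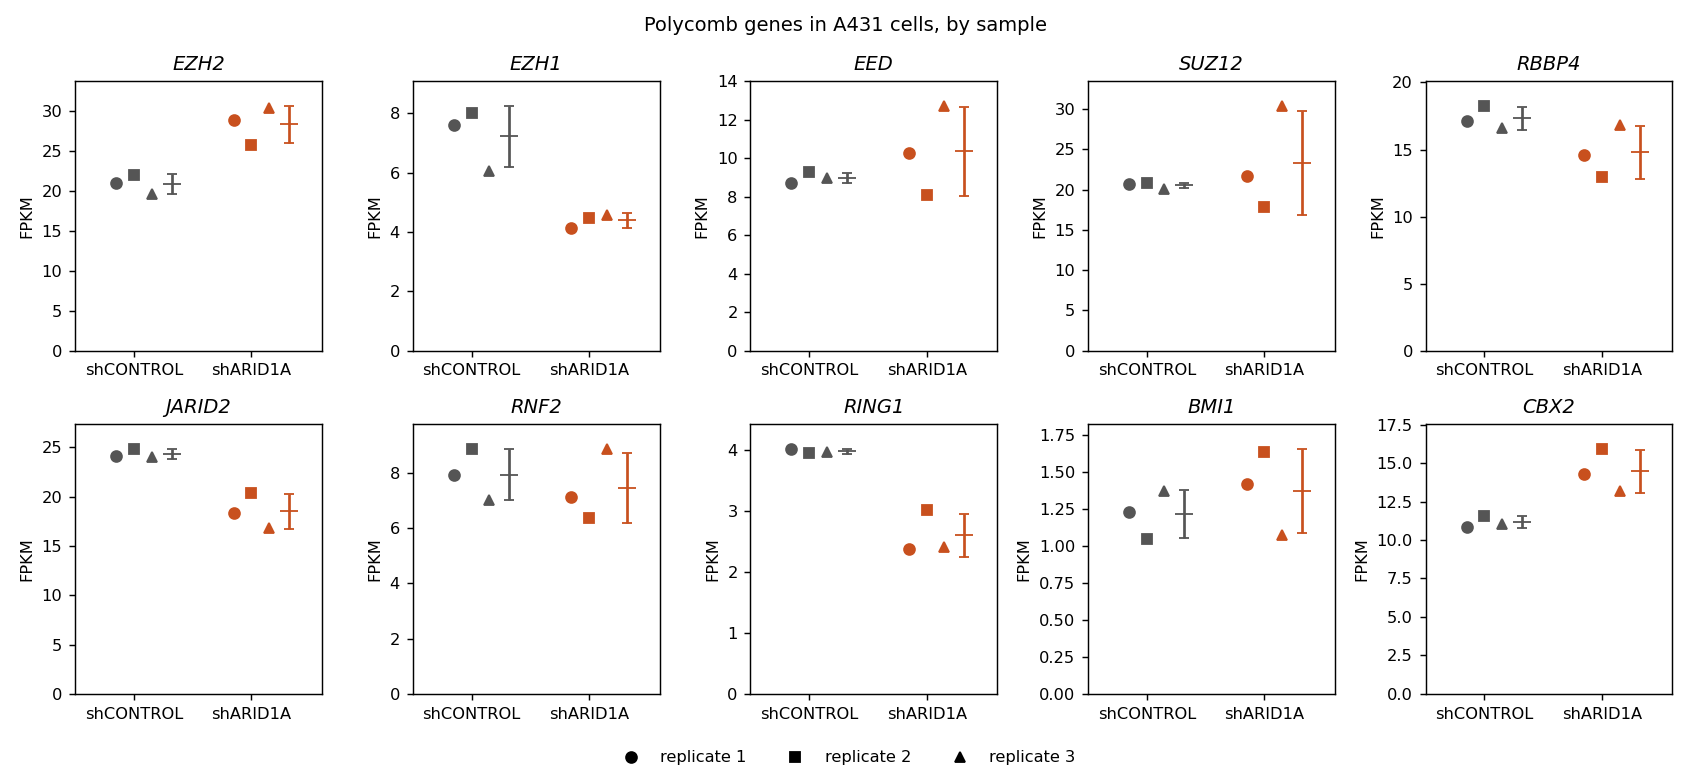
FPKM of the 10 Polycomb genes in each sample (points, one symbol per replicate number), with the mean and SD of the 3 samples of a group beside them. EZH2 and CBX2 sit higher and EZH1, JARID2 and RING1 lower in every shARID1A sample, while the groups overlap for the other 5 genes.

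EZH2 (gene ID 2146), the catalytic subunit of PRC2 in dividing cells, was higher in every shARID1A sample. Its level was 21.0, 22.0 and 19.6 FPKM under shCONTROL and 28.9, 25.8 and 30.3 FPKM under shARID1A. The mean rose from 20.8 ± 1.22 to 28.3 ± 2.33 FPKM, which is 36.0% higher (log2 difference 0.42, standard error 0.099, limma adjusted p = 0.0241). Each value rested on 2014 reads or more. The call was lost without any one of shCONTROL replicates 1, 2 and 3 and shARID1A replicate 1, with adjusted p up to 0.0965. In these runs the log2 difference of EZH2 was 0.43, 0.46, 0.38 and 0.41, in that order.

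EZH1 (gene ID 2145), the paralog that can replace EZH2 in PRC2, moved the other way. It stood at 7.59, 8.02 and 6.06 FPKM under shCONTROL and at 4.12, 4.48 and 4.57 FPKM under shARID1A. The lowest control was above the highest shARID1A value, and the mean fell from 7.22 ± 1.03 to 4.39 ± 0.24 FPKM, or 0.608 of the control level (log2 difference -0.60, standard error 0.12, limma adjusted p = 0.0153). Between 677 and 1287 reads lay behind each value. In these bulk samples, fewer cells with a transcript and less of it per cell cannot be told apart. This call was lost when shCONTROL replicate 1 or 2 or shARID1A replicate 1 was left out (adjusted p up to 0.0873).

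Every shARID1A sample was higher for EZH2 and lower for EZH1, so their ratio had to separate the groups and differ more than either gene alone. The ratio restates the calls of both genes and is no further support for them. It was taken without a pseudocount, and with 1 FPKM added to each gene the log2 difference was 1.03. The ratio of EZH2 to EZH1 FPKM was 2.76, 2.74 and 3.23 under shCONTROL and 7.02, 5.76 and 6.63 under shARID1A. The groups did not overlap, and the mean ratio was 2.91 ± 0.28 and 6.47 ± 0.65 (SD, n = 3 per group). The difference of mean log2 ratios was 1.15, larger than the SD within either group (0.13 and 0.15), and the two-sided exact permutation p was 0.1, the smallest possible with 3 samples against 3, or 0.2 after adjustment over the 2 ratios tested. A factor applied to a whole sample cancels in this ratio. EZH2 made up 74.3% ± 1.74 of the summed EZH1 and EZH2 level with the control shRNA and 86.5% ± 1.21 with the ARID1A shRNA.

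Genes of cell division were higher in the same samples as EZH2. Of 24 proliferation markers 18 rose and 0 fell (limma; 23 higher and 0 lower at an unadjusted p under 0.05), with a median log2 difference of 0.62 against 0.42 for EZH2. Over all genes tested 5.85% were called higher. The count of markers that rose was 11, 10 and 11 when shCONTROL replicate 1, shCONTROL replicate 2 or shARID1A replicate 1 was left out. The share called higher over all genes then fell to 2.18%, 1.99% and 2.35%. Their summed level was 1036 to 1087 FPKM in the shCONTROL and 1553 to 1672 FPKM under shARID1A. MKI67, which encodes the marker Ki-67, rose to 2.03 times its control mean. PCNA, the DNA polymerase clamp, stood at 1.23 times its control mean with an adjusted p of 0.185. Without shARID1A replicate 2 PCNA passed, with a log2 difference of 0.45 in place of 0.28 (limma adjusted p = 0.0127). E2F1, an activator of S phase genes, stood at 1.49 times its control mean with an adjusted p of 0.0617, and it passed with the replicate block (0.0264), after quantile normalization (0.0379), with voom (0.0387) and without shARID1A replicate 3 (0.00941). Set against the geometric mean of the 24 markers, the EZH2 level was 0.648, 0.698 and 0.624 under shCONTROL and 0.559, 0.532 and 0.635 under shARID1A. The groups overlapped in this quotient. Since the markers rose more at the median than EZH2, a higher quotient under shARID1A was not to be expected, and it decides nothing about EZH2. The part of proliferation in the EZH2 difference was not tested.

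The protein-coding genes whose pattern was most like that of EZH2 were CKAP5, a microtubule-binding protein of the spindle, FCHSD2, TGFBR3, a co-receptor for TGF-beta, RFC3, a subunit of the clamp loader of DNA replication, and STX2, a syntaxin of membrane fusion. Their Pearson correlations with EZH2 over the 6 samples, on log2(FPKM + 1), were 0.996, 0.996, 0.995, 0.994 and 0.990. These are the 5 highest of 10774 genes, 117 of which exceeded 0.95, and the 6 samples fall into 2 groups, so no p is given. On the deposited scale RFC3 was the one of the 5 that passed the test between groups, with 17.2 ± 1.32 and 24.7 FPKM on average (limma adjusted p = 0.0178), a call lost when any 1 control or shARID1A replicate 1 was left out. Of the other 4, CKAP5 passed with voom (adjusted p = 0.0202) and after upper quartile scaling (0.0480), STX2 with voom (0.0452) and after quantile normalization (0.0286), and FCHSD2 (0.0431) and TGFBR3 (0.0465) after quantile normalization.

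The other PRC2 core genes did not pass. SUZ12 (gene ID 23512), the scaffold, stood at 20.7, 20.8 and 20.1 FPKM under shCONTROL and at 21.7, 17.8 and 30.4 FPKM under shARID1A. The controls lay close together, the shARID1A samples spread to both sides of them, and the log2 difference of 0.14 (95% interval -0.25 to 0.53, limma adjusted p = 0.589) turned to -0.06 without shARID1A replicate 3. EED (gene ID 8726), the subunit that reads the H3K27 mark, showed the same order of shARID1A samples, with 8.72, 9.27 and 8.98 FPKM in the shCONTROL and 10.3, 8.10 and 12.7 FPKM under shARID1A. Its log2 difference was 0.17 (95% interval -0.18 to 0.51, limma adjusted p = 0.467). RBBP4 (gene ID 5928), the histone chaperone, stood at 17.2, 18.3 and 16.6 FPKM and at 14.6, 12.9 and 16.9 FPKM. Its groups overlapped through shARID1A replicate 3, the log2 difference was -0.22 (95% interval -0.48 to 0.04, limma adjusted p = 0.211), and without that library it fell (adjusted p = 0.0443). SUZ12 and RBBP4 have pseudogenes that may take or add reads, and their levels are uncertain. SUZ12P1, a transcribed copy listed on its own, stood at 7.91 to 8.68 FPKM under shCONTROL and at 8.44, 6.07 and 11.5 FPKM under shARID1A, the same order as SUZ12.

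JARID2 (gene ID 3720), the accessory subunit, fell. It stood at 24.1, 24.9 and 24.0 FPKM under shCONTROL and at 18.3, 20.4 and 16.8 FPKM under shARID1A, with no overlap. The mean went from 24.3 ± 0.46 to 18.5 ± 1.77 FPKM, or 0.760 of the control level (log2 difference -0.38, standard error 0.098, limma adjusted p = 0.0333). The call ended after quantile normalization (adjusted p = 0.0520), with voom (0.0760) and when any 1 control or shARID1A replicate 1 was left out (up to 0.150).

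Among the PRC1 genes, RING1 fell and its paralog RNF2 did not pass. RING1 (gene ID 6015) stood at 4.02, 3.94 and 3.97 FPKM under shCONTROL, which differed by little, and at 2.37, 3.01 and 2.41 FPKM under shARID1A, all lower. The mean was 0.653 of the control level (log2 difference -0.47, standard error 0.12, limma adjusted p = 0.0276). The call ended without a filter on low values (adjusted p = 0.0630), after quantile normalization (0.139) and when any 1 control or shARID1A replicate 1 was left out (up to 0.113). The deposited table gives RING1 a length of 10428 bases, 5.74 times the 1818 bases of its merged exons in GENCODE 29, while this factor is 0.361 to 1.03 for the other 9 genes. The FPKM of RING1 is thus divided by an unusually large length and cannot be set beside the levels of other genes, whereas the ratio of its group means does not depend on the length, which is the same in all samples. The difference on the log2(FPKM + 1) scale does depend on it, since a large length lowers FPKM toward the pseudocount, and was -0.60 with a pseudocount of 0.1 FPKM and -0.24 with 5 FPKM.

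RNF2 (gene ID 6045), the main E3 ligase subunit of PRC1, stood at 7.92, 8.87 and 7.01 FPKM under shCONTROL and at 7.13, 6.36 and 8.85 FPKM under shARID1A. The ranges overlapped almost fully, and the log2 difference was -0.09 (95% interval -0.40 to 0.23, limma adjusted p = 0.697), which turned to 0.03 after quantile normalization and to 0.01 without shARID1A replicate 2. The ratio of RNF2 to RING1 FPKM, whose level carries the length of RING1, was 1.97, 2.25 and 1.77 in the shCONTROL and 3.01, 2.11 and 3.67 under shARID1A. These groups overlapped, and the difference of mean log2 ratios of 0.53 had an exact two-sided permutation p of 0.2, also after adjustment over the 2 ratios.

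CBX2 (gene ID 84733), which reads the PRC2 mark in canonical PRC1, stood at 10.8, 11.6 and 11.0 FPKM under shCONTROL and at 14.3, 15.9 and 13.2 FPKM under shARID1A. The groups did not overlap and the shARID1A mean was 1.30 times the control mean, yet the adjusted p missed the threshold (log2 difference 0.35, standard error 0.10, limma adjusted p = 0.0529). With the replicate block it was 0.0394, and it also passed with an equal FPKM sum per sample (0.0483), after upper quartile scaling (0.0434) or quantile normalization (0.0318), with voom (0.0264) and without shARID1A replicate 3 (0.0170). Without each of the other libraries it missed, with adjusted p up to 0.179. CBX8, a chromobox gene that lies near CBX2 on chromosome 17 and encodes an alternative subunit, did not pass (log2 difference -0.03).

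BMI1 (gene ID 648), the PCGF protein of canonical PRC1 known for stem cell self-renewal, had the lowest level of the 10. It stood at 1.22, 1.05 and 1.37 FPKM under shCONTROL and at 1.42, 1.63 and 1.07 FPKM under shARID1A, so that the groups overlapped. Only 124 to 182 reads lay behind each value, and the log2 difference was 0.09 (95% interval -0.21 to 0.40, limma adjusted p = 0.660). BMI1 made up 1.97% to 3.18% of the summed FPKM of the 6 PCGF genes, of which PCGF1 and PCGF3 had the largest shares under shCONTROL (33.3% ± 2.75 and 32.9% ± 0.53). In RefSeq BMI1 overlaps the read-through gene COMMD3-BMI1, and how the counting treated shared reads was not given in the sources used here, and this level is uncertain.

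**Figure D2:**
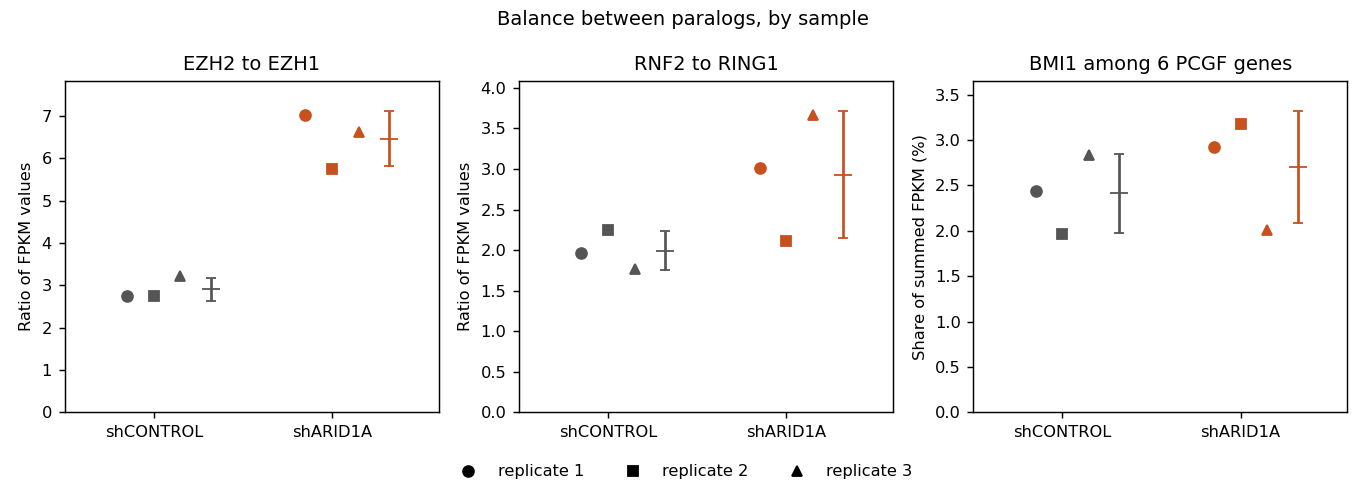
Ratio of FPKM values of paralogs, and share of one gene in the summed FPKM of its paralogs in percent, in each sample (points, one symbol per replicate number) with the mean and SD of the 3 samples of a group. The EZH2 to EZH1 ratio is higher in every shARID1A sample, whereas the groups overlap for RNF2 to RING1 and for the BMI1 share.

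The order of levels differed between the groups, and RING1 is left out of it for the length given above. Under shCONTROL the means ran JARID2 (24.3 FPKM), EZH2 (20.8), SUZ12 (20.5), RBBP4 (17.3), CBX2 (11.1), EED (8.99), RNF2 (7.93), EZH1 (7.22) and BMI1 (1.21). The ranges of neighbours overlapped there for EZH2 and SUZ12, for EED and RNF2 and for RNF2 and EZH1. Under shARID1A the means ran EZH2 (28.3 FPKM), SUZ12 (23.3), JARID2 (18.5), RBBP4 (14.8), CBX2 (14.5), EED (10.4), RNF2 (7.45), EZH1 (4.39) and BMI1 (1.37). All neighbours from EZH2 to CBX2 overlapped, as did EED and RNF2, whereas CBX2 and EED, RNF2 and EZH1, and EZH1 and BMI1 did not.

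For 9 of the 10 genes the coefficient of variation was larger in the shARID1A group, as it was for 70.7% of all genes tested. It reached 27.7% for SUZ12 against 1.67% in the controls, and EZH1 was the exception (5.50% against 14.3%). EZH2, EED, SUZ12, RBBP4 and RNF2 had their highest shARID1A value in replicate 3 and their lowest in replicate 2, an order held by 32.7% of all genes tested. JARID2, BMI1 and CBX2 had their lowest value in replicate 3, as did 37.6% of all genes.

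**Figure D3:**
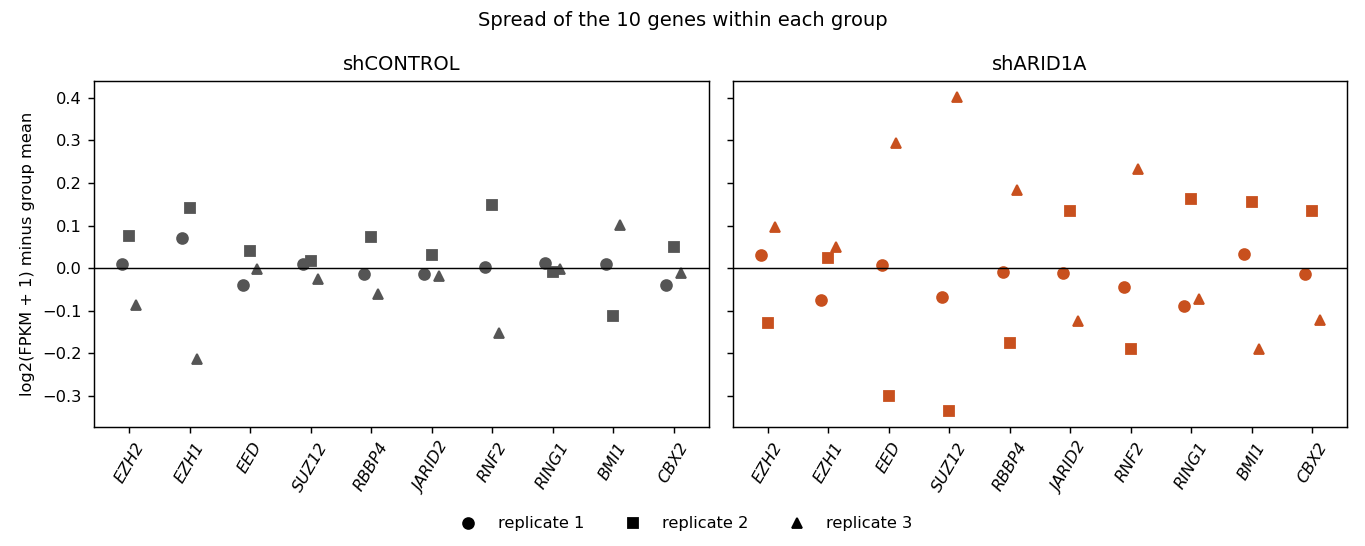
Deviation of each sample's log2(FPKM + 1) from its group mean for the 10 genes, shCONTROL left and shARID1A right, one symbol per replicate number. In the shARID1A group replicate 3 (triangles) lies above and replicate 2 (squares) below the mean for EZH2, EED, SUZ12, RBBP4 and RNF2.

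Of 44 further Polycomb genes on 3 lists of other subunits, 43 were listed, 40 were tested, 1 rose and 2 fell, with 10 at an unadjusted p under 0.05 and a median log2 difference of -0.04. The share called at an adjusted p under 0.05 was below the 16.8% of all genes. With the replicate block 6 of the 40 passed, since SCMH1 (adjusted p = 0.0443), LCOR (0.0255) and FOXK1 (0.0461) then passed. The share called over all genes rose to 23.6% with the block. With shCONTROL replicate 1 or 2 or shARID1A replicate 1 left out, PHF19 alone passed, while 6.45%, 5.06% and 6.78% of all genes did. Without shARID1A replicate 3, 8 of the 40 passed, while 29.3% of all genes did.

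Of 7 other PRC2 genes tested, 1 rose and 0 fell (limma; 1 lower at an unadjusted p under 0.05, and LCOR fell with voom). PHF19, a Tudor domain subunit that binds methylated histone H3 and helps to recruit PRC2, stood at 12.4, 11.8 and 10.7 FPKM under shCONTROL and at 24.6, 24.9 and 16.7 FPKM under shARID1A. Every shARID1A value was above every control, the log2 difference was 0.85 (standard error 0.16, limma adjusted p = 0.0098), and the call held in all 15 alternatives (adjusted p up to 0.0468). PHF1 and MTF2, which encode the other members of the same subunit family, had log2 differences of -0.01 and 0.03 and did not pass. LCOR stood at 3.26 ± 0.13 and 1.91 ± 0.74 FPKM (adjusted p = 0.0541).

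Of 24 other PRC1 genes tested, 0 rose and 1 fell (limma; 2 higher and 3 lower at an unadjusted p under 0.05, and 0 rose with voom). E2F6, a repressive E2F factor of a variant PRC1, stood at 9.08, 8.27 and 6.73 FPKM under shCONTROL and at 5.49, 5.31 and 4.98 FPKM under shARID1A. All shARID1A values were lower, with a log2 difference of -0.52 (standard error 0.12, limma adjusted p = 0.0258). The call was lost when shCONTROL replicate 1 or 2 or shARID1A replicate 1 was left out, without a filter on low values and after quantile normalization (up to 0.117). SCML2 and CBX7 were below the filter, at no more than 0.524 FPKM. When no filter was set, CBX7, a chromobox subunit, was the PRC1 gene on the list that passed, with 0.501 ± 0.025 FPKM under shCONTROL, 0.215 ± 0.073 FPKM under shARID1A and 18 to 72 reads per sample (limma adjusted p = 0.0281).

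Of 9 tested genes of PR-DUB, the complex that removes the PRC1 mark from histone H2A, 0 rose and 1 fell (limma; 0 higher and 3 lower at an unadjusted p under 0.05, and 0 changed with voom). OGT, an X-linked O-GlcNAc transferase bound to this complex, stood at 30.9, 34.9 and 34.3 FPKM and at 26.4, 25.5 and 27.1 FPKM (log2 difference -0.33, limma adjusted p = 0.0404). The table lists OGT a second time with another denominator, at 27.3, 27.8 and 26.3 FPKM in the shCONTROL and 25.6, 28.6 and 27.3 FPKM under shARID1A. In that second listing the groups overlapped and the log2 difference was 0.00, so the call depends on which listing is read. It also ended with voom, after upper quartile scaling or quantile normalization, and without each library except shARID1A replicate 3 (up to 0.194).

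**Figure D4:**
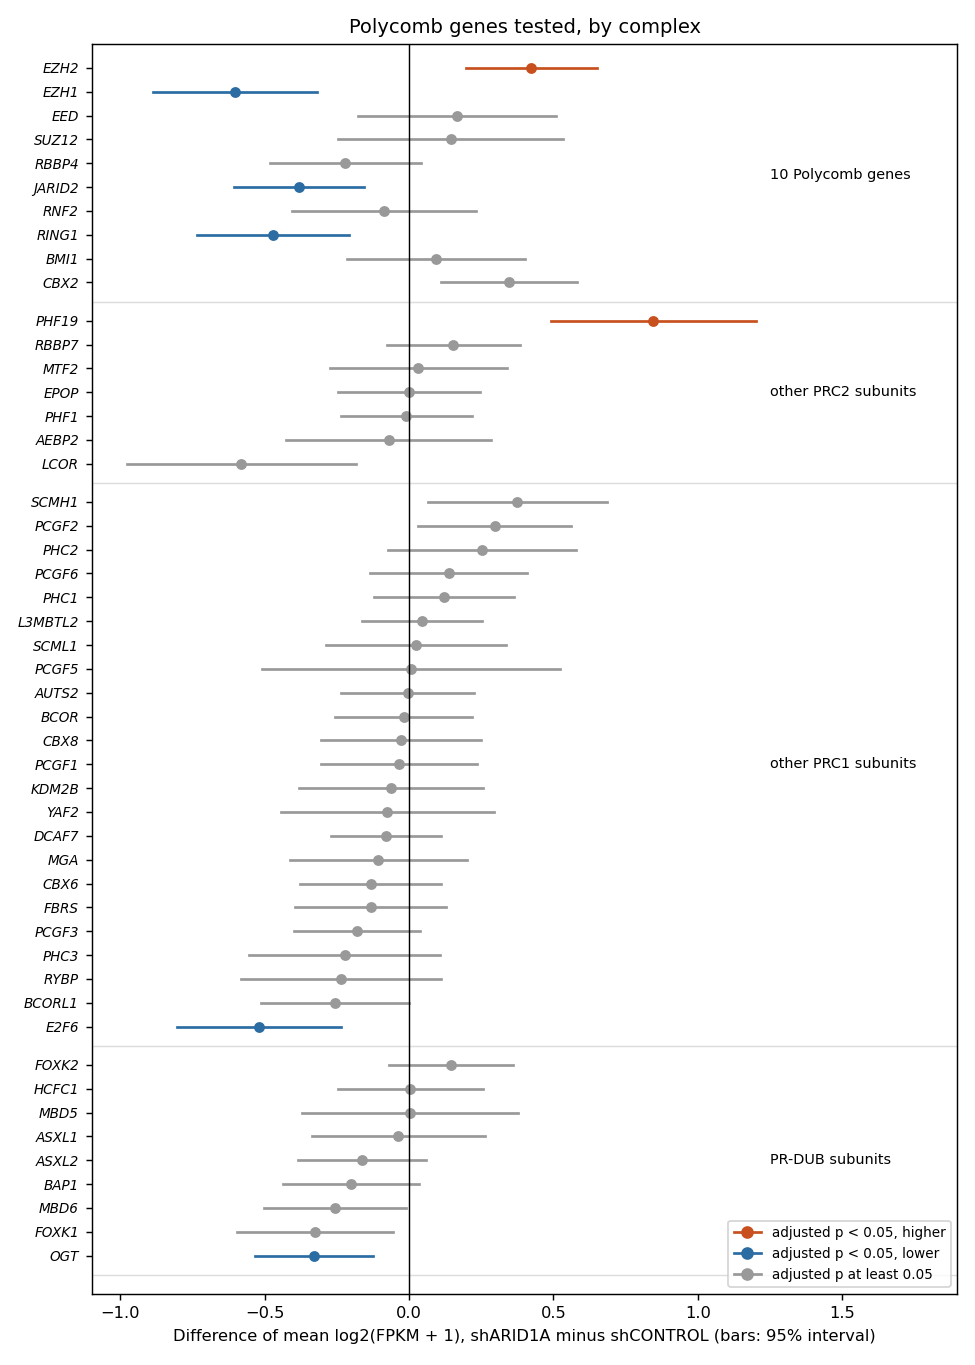
Difference of mean log2(FPKM + 1), shARID1A minus shCONTROL, with limma's 95% interval, for the 10 Polycomb genes and the tested genes of the other subunit lists but 1, coloured by call. EZH2 and PHF19 are called higher and EZH1, JARID2, RING1, E2F6 and OGT lower.

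KDM6B, the demethylase that removes the PRC2 mark, fell. It stood at 10.7, 12.2 and 11.5 FPKM under shCONTROL and at 5.44, 5.91 and 4.83 FPKM under shARID1A. The mean was 0.471 of the control level (log2 difference -0.96, standard error 0.11, limma adjusted p = 0.00178), and the call held in all 15 alternatives. Its X-linked paralog KDM6A did not pass (log2 difference -0.21).

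Among loci known as Polycomb targets, CDKN2B at the INK4-ARF locus fell. Of 23 HOX genes tested 3 fell, while 10.9% of all genes were called lower. The INK4-ARF locus was not silent here, with shCONTROL means of 57.0 FPKM for CDKN2B and 82.3 FPKM for CDKN2A. Whether Polycomb complexes act on these genes in A431 cells was not tested. CDKN2B, which encodes the cell cycle inhibitor p15, stood at 64.5, 65.1 and 41.6 FPKM under shCONTROL and at 10.6, 13.4 and 17.6 FPKM under shARID1A. Its mean was 0.243 of the control level (log2 difference -1.96, standard error 0.21, limma adjusted p = 0.00148), and the call held in all 15 alternatives. Its neighbour CDKN2A, which encodes p16 and ARF, stood at 82.3 ± 8.28 and 62.3 ± 12.1 FPKM (limma adjusted p = 0.0911) and passed with the replicate block and without shARID1A replicate 2.

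Of 39 HOX genes, 34 were listed and 23 tested, and the other 11 were at most 0.949 FPKM. Of those tested 0 rose and 3 fell (limma), against 10.9% lower over all genes. At an unadjusted p under 0.05, 1 was higher and 4 were lower. With voom 0 were higher and 1 was lower, against 9.04% and 8.37% of all genes. HOXD10 went from 5.23 ± 0.13 to 3.35 ± 0.22 FPKM, HOXD11 from 5.07 ± 0.63 to 3.34 ± 0.28 FPKM and HOXA2 from 3.64 ± 0.53 to 2.33 ± 0.29 FPKM. After quantile normalization these 3 missed and HOXC11 rose, and with the replicate block HOXC11 rose while the 3 fell. Without shARID1A replicate 3, HOXA11 rose while the 3 fell, and 29.3% of all genes were called. Without a filter on low values, as with voom, HOXD10 was the one that passed. None of the 23 passed in limma when shCONTROL replicate 1 or 2 or shARID1A replicate 1 was left out. The median log2 difference of the tested HOX genes was -0.13.

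**Figure D5:**
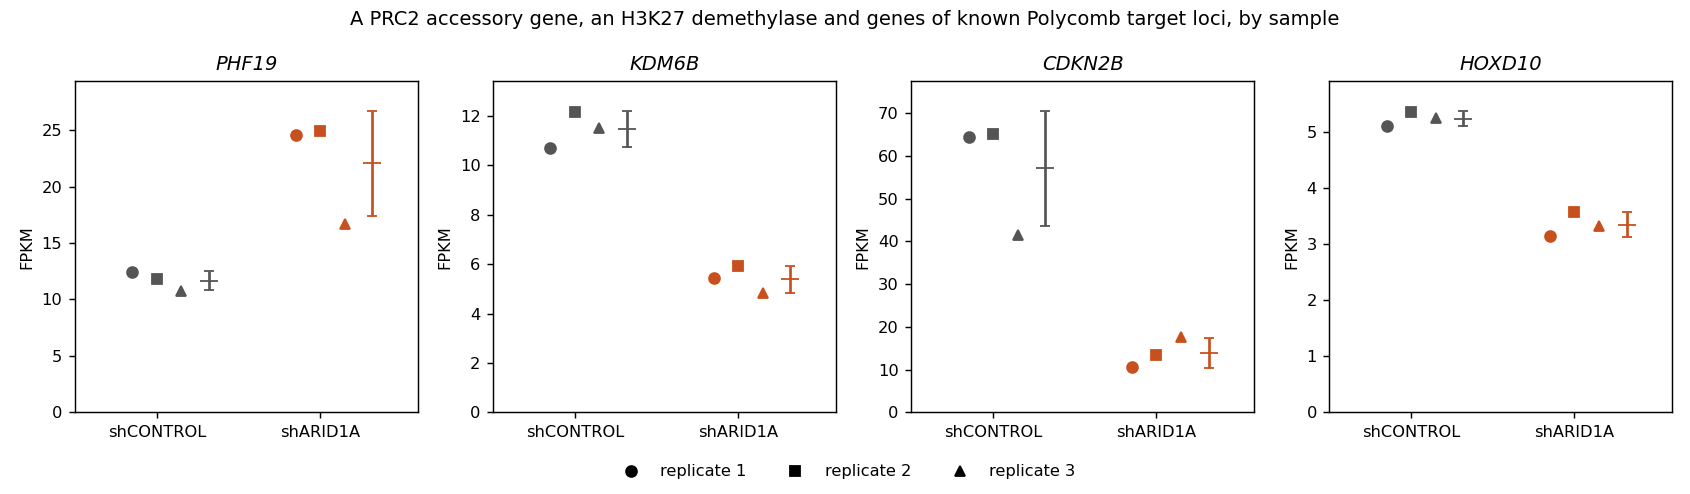
FPKM of PHF19, KDM6B, CDKN2B and HOXD10 in each sample (points, one symbol per replicate number) with the mean and SD of the 3 samples of a group. PHF19 is higher and the other 3 are lower in every shARID1A sample.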

How the data were processed

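Total RNA was sequenced from 3 shCONTROL and 3 shARID1A samples of A431 cells. HISAT2 2.0.5 and featureCounts 1.5.0-p1 are named per the submitters' processing notes. The strandedness of the libraries and the build were not given in the sources used here. The values are FPKM, deposited by the authors in 1 table beside gene lengths. Over its first 19421 gene rows 100% of the values were whole multiples of 1 read (tolerance 0.01 reads), which gave the reads behind each value. The last 393 rows have another denominator and were not tested. NCBI gene IDs were matched to RefSeq (GRCh38.p14) for 19344 genes.

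The test was limma 3.58.1 (R 4.3.3; trend) on log2(FPKM + 1), a pseudocount of 1 FPKM, for genes averaging 1 FPKM or more over the 6 samples, two-sided, with Benjamini-Hochberg adjustment at 0.05. Voom with TMM scaling on the recovered reads was an alternative, and scripts were tested on simulated data. Python 3.11.15, scipy 1.17.1 and matplotlib 3.10.9 made the exact tests and figures. The 10 genes, the lists and the rule for named genes (the 10 genes, ARID1A, each gene of the Polycomb, HOX, INK4-ARF and demethylase lists that passed, MKI67, PCNA, E2F1 and the 5 genes most like EZH2) were chosen with earlier results of these data known, and other genes named were picked after their values were seen.

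No pair of replicates agreed within counting noise (chi-square per degree of freedom at least 5.38). Samples with the same replicate number in their titles deviated together from their group means (correlations across genes of 0.321, 0.187 and 0.315). For samples with unlike numbers the correlations ran from -0.302 to 0.0859. The labels state no pairing, so the main fit and the exact tests took the samples as unpaired. A replicate block was an alternative. Other alternatives were a pseudocount of 0.1 or 5 FPKM, a filter at a mean of 5 FPKM or none, equal FPKM sums, upper quartile scaling, quantile normalization and leaving out each sample. Some results are not reported here.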

Additional observations from a re-analysis of the deposited data

How the results depend on the processing

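With each library left out in turn the number of genes changed ran from 587 to 3403, that of the 10 Polycomb genes from 0 to 6 and that of the other Polycomb lists from 1 to 8. With the replicate block the other Polycomb lists had 6 calls, against 3 without it, and the share over all genes was 23.6% against 16.8%. The block added CBX2 to the calls among the 10 genes, HOXC11, CDKN2A and E2F1 among the other genes described, and SCMH1, LCOR and FOXK1 among other subunits, and ended none of the calls among the 10 genes or the other Polycomb, HOX, INK4-ARF and demethylase lists. The log2 difference of RNF2 turned to 0.032 after quantile normalization. With each library left out it ran from -0.20 (without shARID1A replicate 3) to 0.0081 (without shARID1A replicate 2), and that of SUZ12 from -0.057 (without shARID1A replicate 3) to 0.31 (without shARID1A replicate 2). The direction of the other 8 Polycomb genes did not turn in any alternative run. The EZH2 to EZH1 difference ran from 1.03 to 1.23 and that of RNF2 to RING1 from 0.34 to 0.74. BMI1 and RING1 could not be fitted with a minimum of 5 FPKM, where 3 of 8 genes passed, as did 16.9% of all genes tested. The cause of these changes was not tested. Depth limits BMI1 most, with 124 reads in its lowest sample.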
